A study of Aspergillus fumigatus with 12 samples.

Results

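Of 10276 genes measured in fungal mycelium, 135 had lower transcript levels with each of 2 compounds alone than in basic medium. The compounds were the azo dye Ponceau 2R and sinapic acid. In cultures given both, the level lay above, or less than 0.5 log2 units below, at least 1 of the single-compound levels. The 135 genes were chosen from the FPKM values themselves (fragments per kilobase of coding length, scaled to the library's depth). Among 7216 genes with a mean of 5 to under 1000 FPKM over the 12 libraries, group means of log2(FPKM + 1) had to lie at least 0.6 below basic medium with each compound. With both compounds the mean had to be under 0.6 above the dye-only mean, and less than 0.5 below the dye-only or the sinapic-acid-only mean.

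White-rot fungi decay wood by secreting oxidative enzymes, laccases and peroxidases, which also attack many synthetic dyes. Azo dyes such as Ponceau 2R carry a nitrogen-nitrogen double bond between aromatic rings. Sinapic acid is a phenolic acid built on the same ring pattern as syringyl units of lignin, and phenols of this type are substrates of laccases.

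The series title names Trametes hirsuta X-13, a white-rot fungus, while the organism field of every sample gives Aspergillus fumigatus, a mould. The 4 groups of 3 libraries were basic medium (CK), basic medium with Ponceau 2R (P2R), with sinapic acid (SA) and with both (P2R+SA). The design text gives 48 h for all groups, but column headers carry 36 for both groups without sinapic acid and 48 for both groups with it, and an unexplained 4 for P2R+SA. If 36 and 48 are hours, the effects of sinapic acid and of sampling time cannot be told apart. Nothing states that replicates were separate cultures. Their spread, on which each p-value rests, may thus be technical. The files pair no gene ID with a name, and 0 of 10276 IDs matched the 10086 genes of an Aspergillus fumigatus Af293 table (assembly ASM265v1). The genes are therefore described by their levels, and 4 are given by ID.

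Libraries held 35919382 to 39408714 fragments, and a median of 974 fragments per library lay behind a value of the 135 genes. P2R+SA replicate 1 stood apart from its group: the chi-square per degree of freedom between fragment counts was 193 and 220 against replicates 2 and 3, and 36.3 between those. The SA libraries all differed from each other to a like extent (214 to 263), so none of them is singled out by this measure, and P2R replicate 2 differed more from the other P2R libraries (83.9 and 85.7) than these from each other (28.7). Spearman correlations between replicates were 0.9946 to 0.9956 in CK, 0.9905 to 0.9953 in P2R, 0.9657 to 0.9773 in SA and 0.9754 to 0.9947 in P2R+SA. Among the 135 genes P2R+SA replicate 1 was the highest of its group in 119 of them (88.1%), against 57.1% of all genes in the same FPKM window, SA replicate 1 was the lowest of its group in 86 (63.7%), against 26.4%, and P2R replicate 2 in 85 (63.0%), against 53.5%. Membership without each of these is given with the library medians.

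By a rule on values, the 2 genes with the largest fall under the weaker compound, among those with all CK libraries above the other 9, were A10783 and A04815. A10783 (coding length 543 bp) stood at 46.86, 44.71 and 41.68 FPKM in CK, 9.04, 6.22 and 8.32 in P2R, 4.56, 9.60 and 5.85 in SA, and 7.09, 3.09 and 3.85 in P2R+SA. The CK libraries were far above the rest, and the 3 treated groups overlapped each other. Its means were 44.42 ± 2.60 FPKM in CK, 7.86 ± 1.46 with the dye, 6.67 ± 2.62 with sinapic acid and 4.68 ± 2.12 with both (SD, n = 3 each), so CK was 5.65-fold, 6.66-fold and 9.5-fold higher than P2R, SA and P2R+SA. The smallest of these values, 3.09 FPKM, came from 62 fragments. On the log2(FPKM + 1) scale the difference from CK was -2.37 with the dye, -2.62 with sinapic acid and -3.06 with both, short of the sum of the separate ones. Without P2R+SA replicate 1 the difference with both was -3.35.

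A04815 (681 bp) was one of the more abundant members, with 1272.23, 930.64 and 939.70 FPKM in CK. It stood at 264.38, 202.46 and 261.56 FPKM in P2R, at 54.04, 65.50 and 26.80 in SA, and at 100.48, 55.69 and 44.85 in P2R+SA. Here the SA and P2R+SA libraries overlapped, and both groups lay below every P2R library. Means were 1047.52 ± 194.66 FPKM in CK, 242.80 ± 34.96 with the dye, 48.78 ± 19.88 with sinapic acid and 67.01 ± 29.49 with both (SD, n = 3 each), which put CK 4.31-fold above P2R, 21.5-fold above SA and 15.6-fold above P2R+SA. SA and P2R+SA did not differ beyond their spread. Leaving out SA replicate 1 and P2R+SA replicate 1 gave log2 differences from CK of -4.59 in SA and -4.35 in P2R+SA.

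The 2 members with the highest P2R+SA level relative to P2R were A07605 and A10137. A07605 (483 bp) had 23.77, 23.44 and 26.69 FPKM in CK, 11.64, 10.75 and 11.62 in P2R, 11.93, 25 and 12.93 in SA, and 19.51, 17.05 and 16.41 in P2R+SA. P2R was tightly grouped at 11.34 ± 0.51 FPKM, P2R+SA lay above it at 17.66 ± 1.64, and SA (16.62 ± 7.28) was split, with replicate 2 among the CK values of 24.63 ± 1.79 (SD, n = 3 each). Its P2R+SA mean was 0.59 log2 units above P2R and differed from CK by -0.46. Without SA replicate 1 its SA minus CK was -0.43, which no longer meets the limit.

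A10137 (1986 bp) had 15.74, 14.61 and 21.16 FPKM in CK, 3.93, 3.69 and 5.61 in P2R, 1.57, 9.65 and 7.58 in SA, and 11.70, 6.03 and 3.11 in P2R+SA. All 9 treated libraries lay below CK (17.17 ± 3.50 FPKM), and SA (6.26 ± 4.19) and P2R+SA (6.95 ± 4.37) spread widely around P2R (4.41 ± 1.05; SD, n = 3 each). Its P2R+SA mean was 0.42 log2 units above P2R, within the spread of P2R+SA; it was 0.01 without P2R+SA replicate 1 and 0.82 without P2R+SA replicate 3.

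**Figure D1:**
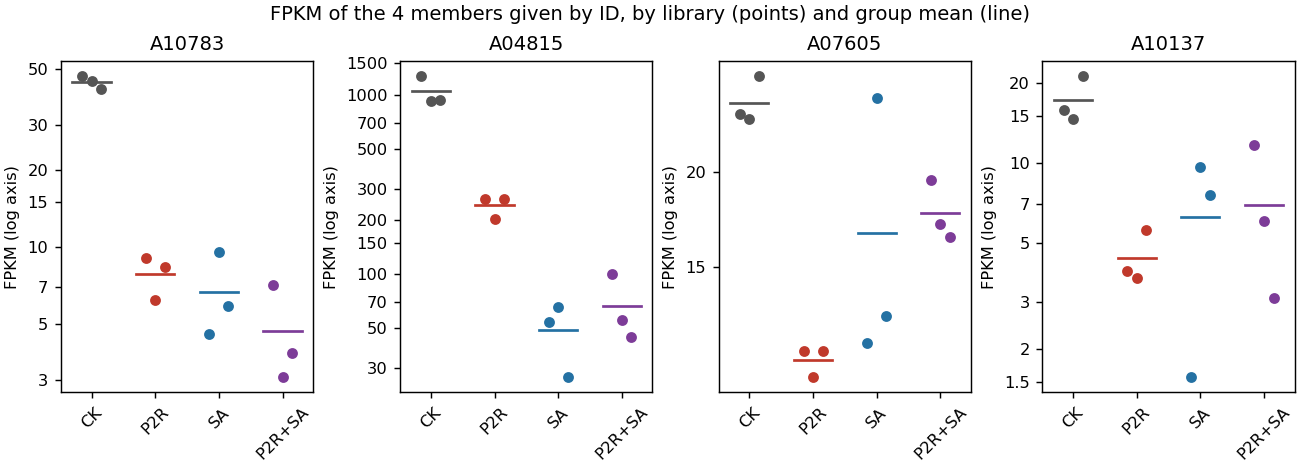
FPKM (log axis) of A10783, A04815, A07605 and A10137 in CK, P2R, SA and P2R+SA, with a point for each library and a line for the group mean. A04815 lies at 1047.52 FPKM in CK, 242.80 in P2R and lower in SA and P2R+SA, while A10783 lies at 7.86, 6.67 and 4.68 FPKM in the 3 treated groups.

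The 135 genes covered most of the abundance range that the choice allowed. In CK their means ran from 8.25 to 1255.96 FPKM, with a median of 36.91, against a median of 31.33 FPKM over the 7216 genes of the window. Averaged over all libraries, 31 of them (23.0%) were under 10 FPKM and 23 (17.0%) at 100 FPKM or more, where the window held 15.8% and 20.2%. Their coding lengths, which had no part in the choice, ran from 351 to 5172 bp with a median of 1272 bp, against 1350 bp over the 9240 genes with at least 1 FPKM in 3 libraries (the tested genes below). Together they made up 1.64% to 1.80% of the summed FPKM in CK, 0.86% to 0.93% with the dye, 0.57% to 0.78% with sinapic acid and 0.49% to 0.77% with both. No treated library reached the lowest CK share, a separation that the choice itself favours. In bulk RNA, fewer cells with a transcript and less transcript per cell cannot be told apart.

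As chosen, every member lay below CK with each compound, by a median of -0.91 log2 units in P2R (-3.34 to -0.60) and -1.0 in SA (-4.47 to -0.61). The median over all tested genes was -0.09 in P2R and -0.04 in SA. In P2R+SA the members' median was -1.33 (-4.14 to -0.42), against -0.11 over all tested genes. In FPKM, a median of 52.2% of the CK level was left with the dye (2.8% to 66.6%), 50.9% with sinapic acid (4.1% to 158.6%) and 38.0% with both (0.4% to 76.4%). The member at 158.6% averaged 18.58 FPKM in SA and 11.71 in CK, with SA libraries from 0.11 to 50.31. It was thus lower in SA only on the log2 scale. Split at the median of mean FPKM, the more abundant members had medians of -0.83 with the dye, -0.98 with sinapic acid and -1.35 with both, and the less abundant ones -0.98, -1.03 and -1.33.

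**Figure D2:**
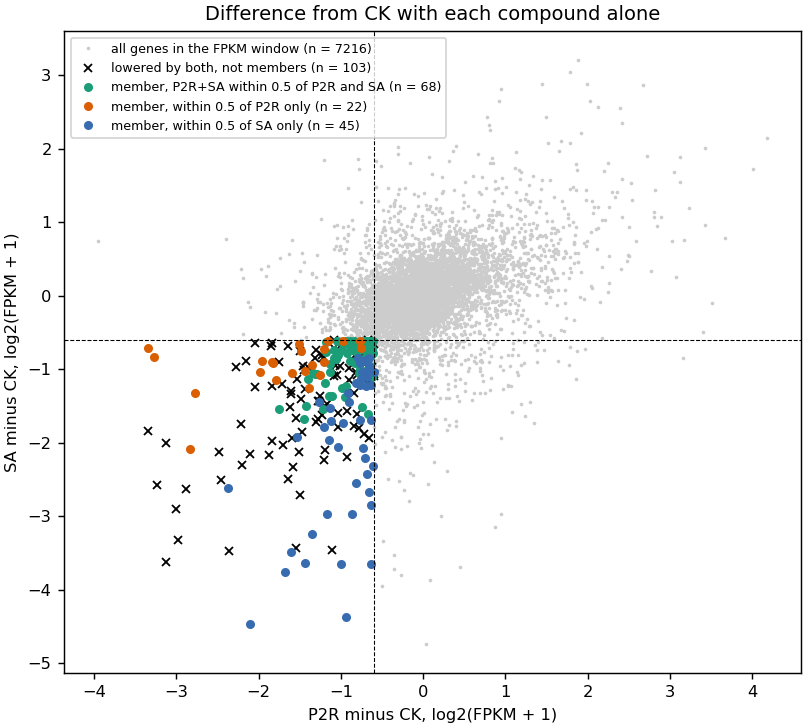
Difference of each gene's mean log2(FPKM + 1) from CK with the dye alone (x axis) and with sinapic acid alone (y axis), for the 7216 genes of the FPKM window, the members in 3 colours and the genes lowered by both compounds that were not members as crosses. Dashed lines mark the limits at -0.6, and the members fill the lower left corner out to -3.34 on the dye axis and -4.47 on the sinapic acid axis.

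CK was well separated from the treated libraries in most members. In 112 of 135 (83.0%) all 3 CK libraries lay above all 9 treated libraries, against 12.3% of tested genes, a share that the choice itself raises. Of the 23 others, 16 had an SA library at or above the lowest CK library, 6 a P2R+SA library and 1 a P2R library. SA replicate 1 and P2R+SA replicates 2 and 3 reached CK in 0 members, while SA replicate 3 did so in 10, SA replicate 2 in 7 and P2R+SA replicate 1 in 6.

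In limma, fitted across all 9240 tested genes, 114 members were called lower in P2R vs CK (16.3% of tested genes were called lower), 103 in SA vs CK (9.84%) and 128 in P2R+SA vs CK (24.7%) at a Benjamini-Hochberg adjusted p under 0.05. All of these comparisons share the CK libraries, and 87 members were called lower in all 3, against 3.37% of tested genes. Because the same group means chose the members, these counts describe how large the differences were beside the replicate spread and are no separate evidence. The limits put all treated means of every member below CK, so none could be called higher in these comparisons. Of tested genes, 12.3%, 6.79% and 15.2% were called higher. The counts of 0, also found at an unadjusted p under 0.05 and in limma-voom, are thus no finding. The count in P2R vs CK was 71 without P2R replicate 2.

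A measure partly outside the choice came from choosing genes on 2 libraries per group and reading them in the library left out. These lists were not the members themselves. With replicates 1, 2 and 3 left out, 65 of 96, 108 of 161 and 107 of 161 chosen genes were members. The limits were set with earlier results of these data known, and a single CK library entered every left-out difference from CK. The shares below therefore describe the rule and do not test the list of members. Without the replicate 1 libraries, 96 genes met the rule, and in the left-out libraries 49 of these (51.0%) lay at least 0.6 below CK with each compound, against 4.12% of all genes in the window. Without replicate 2 it was 73 of 161 (45.3%, against 3.64%), and without replicate 3 it was 86 of 161 (53.4%, against 3.53%). The whole rule, with the limits on P2R+SA, was met in the left-out libraries by 40 (41.7%), 48 (29.8%) and 45 (28.0%) of the genes, against 3.01%, 2.14% and 1.67% of the window. A level below CK in all of P2R, SA and P2R+SA was found for 86 of 96, 142 of 161 and 147 of 161, where 26.6%, 41.6% and 35.3% of the window had it. In the left-out libraries of replicates 1, 2 and 3, the chosen genes' median P2R+SA minus P2R was -0.07, -0.36 and -0.69, and P2R+SA minus SA was 0.24, -0.66 and -0.70. Read in replicate 3, both medians thus lay past the limit of -0.5 that the choice had set for the nearer compound.

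How close P2R+SA stayed to the single compounds varied, and a flat level in all 3 treated groups described only some members. The lowest group mean was P2R+SA in 90 members, P2R in 23 and SA in 22. P2R+SA lay between the single-compound means in 35 members and above both in 10. The median member was 0.34 log2 units lower in P2R+SA than in P2R (range -2.59 to 0.59) and 0.22 lower than in SA (-2.96 to 1.36).

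Added together on the log2 scale, the separate differences from CK had a median of -1.95, and P2R+SA reached a median of 65.3% of that sum (27.6% to 94.2%). The limits force every member below its sum, by at least 0.1 log2 units. The observed shortfall had a median of 0.73 and ran from 0.18 to 2.56.

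**Figure D3:**
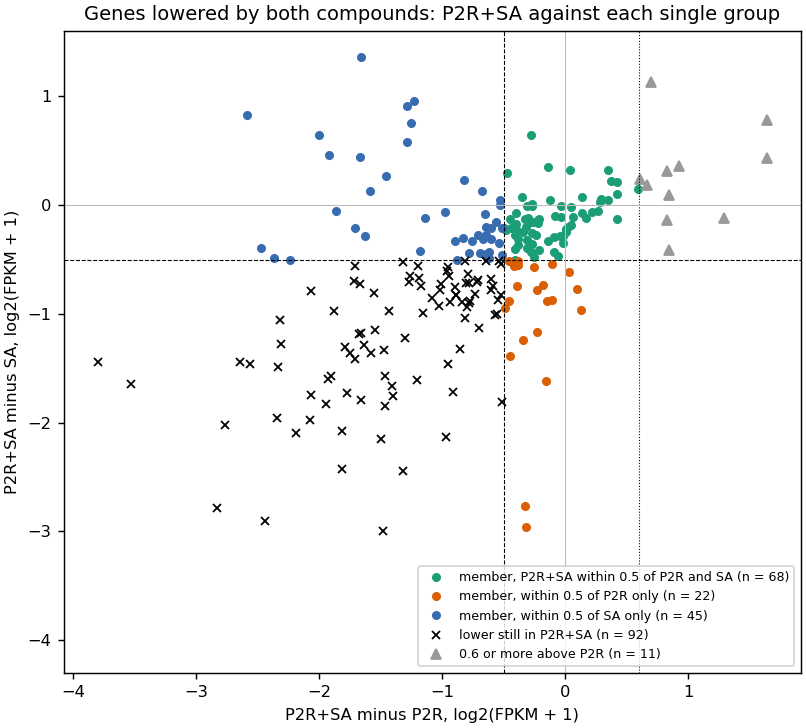
P2R+SA minus P2R (x axis) and P2R+SA minus SA (y axis), in log2(FPKM + 1), for all 238 genes of the window that lay at least 0.6 below CK with each compound. Dashed lines mark -0.5 on both axes and the dotted line 0.6; the 135 members lie to the right of or above the dashed corner, the 92 genes that were lower still below and to the left of it, and 11 genes beyond the dotted line.

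By the limit they met, members fell into 3 kinds. In 68, P2R+SA was within 0.5 log2 units of, or above, both single-compound means. Their medians were -0.87 with the dye, -0.80 with sinapic acid and -1.04 with both, and the median SA minus P2R was 0.03. In 57 of them all CK libraries lay above the 9 treated ones.

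In 45 members P2R+SA was within 0.5 log2 units of, or above, SA and lay 0.5 or more below P2R. This split puts SA below P2R in each of them, so that order is no finding. Their medians were -1.73 in SA, -0.79 in P2R and -1.90 with both. P2R+SA minus SA ran from -0.5 to 1.36 with a median of -0.21, and where it was positive P2R+SA lay between SA and P2R. CK was clear of all treated libraries in 43 of the 45. A04815 and A10783 belong to this kind. Its widest gap was in a gene at 157.00, 108.28 and 118.36 FPKM in CK and 76.63, 54.20 and 66.50 in P2R, which stood at 4.84, 6.89 and 4.10 in SA and 14.79, 8.19 and 8.14 in P2R+SA. P2R stood between, clear of the other groups, and P2R+SA lay above SA.

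In the remaining 22 members P2R+SA stayed near P2R and lay 0.5 or more below SA. Here the split puts P2R below SA in each gene. The medians were -1.5 with the dye, -0.90 with sinapic acid and -1.77 with both. CK was clear of all treated libraries in 12 of the 22. The SA value was unstable in several, with a SD between SA replicates over 1 log2 unit in 7 of 22, against 1 of 68 and 2 of 45 in the other kinds. The gene with the widest gap had 34.02, 45.27 and 43.13 FPKM in CK, 3.90, 2.95 and 2.54 in P2R, and 3.56, 1.58 and 1.97 in P2R+SA. In SA it had 6.16, 52.21 and 42.12 FPKM, so that only replicate 1 lay below CK.

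Another of these 22 was at 13.72, 9.60 and 11.82 FPKM in CK and at most 0.63 FPKM in every P2R library. It was at 0.03 and 0.10 FPKM in P2R+SA replicates 1 and 2 and listed at 0 in replicate 3. In SA it had 0.11, 5.33 and 50.31 FPKM. It was the member with the lowest P2R+SA level, and the SA libraries spanned values far below and far above CK.

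**Figure D4:**
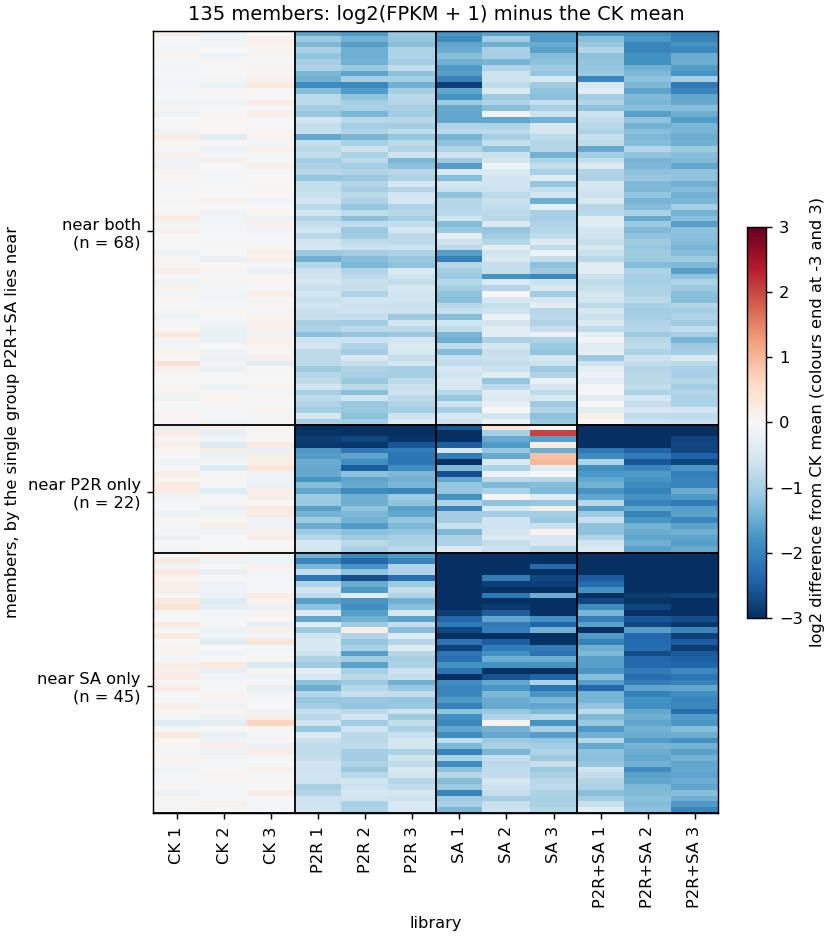
Each row is 1 of the 135 members and each column 1 library; colour gives log2(FPKM + 1) minus the gene's CK mean, from blue (lower) to red (higher), with colours ending at -3 and 3. The 45 members near SA, or above it, are darkest in SA and P2R+SA. The 22 near P2R are darkest in P2R and P2R+SA with uneven SA columns, and P2R+SA replicate 1 is paler than replicates 2 and 3.

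Compared directly, 76 members were lower in SA than in P2R and 59 lower in P2R than in SA, with a median SA minus P2R of -0.09 (-3.42 to 2.64). In limma 25 members were called lower in SA (12.3% of tested genes) and 6 higher (13.0%). The choice set no limit on this difference, although both means entered it and the header numbers 36 and 48 differ. Between the combination and the single compounds, 32 members were called lower in P2R+SA vs P2R (11.3% of tested genes) and 0 higher (8.52%). At an unadjusted p under 0.05, 1 member was higher, and limma-voom on the recovered fragments called 0. The limits hold P2R+SA less than 0.6 above P2R in every member, so the choice itself keeps the count called higher low. In P2R+SA vs SA 4 were called lower (3.16%) and 1 higher (2.88%). The last count rests on few libraries: it was 33 in total without P2R+SA replicate 1, 2 without P2R+SA replicate 2 and 0 with the compared libraries alone, so the low number does not show that SA and P2R+SA were equal. It was also 25 without SA replicate 1 and 3 without P2R+SA replicate 3. For P2R+SA vs P2R the count was 60 when P2R+SA replicate 1 was left out, and was 21 when P2R replicate 1 or P2R+SA replicate 3 was. For the interaction, the sinapic acid effect with the dye less that without it, 9 members were called higher (0.455% of tested genes) and 0 lower (0.693%; also 0 at an unadjusted p under 0.05 and in limma-voom), a direction that the limits fix.

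Library by library, the members' median difference from the CK mean was -0.85, -1.04 and -0.90 with the dye, -1.33, -0.82 and -0.98 with sinapic acid, and -0.96, -1.44 and -1.56 with both. P2R replicate 2 and SA replicate 1 had the lowest medians of their groups, and P2R+SA replicate 1 lay at the level of the single compounds while replicates 2 and 3 lay lower. The median SD between replicates was 0.12 log2 units in CK and 0.19, 0.32 and 0.36 with the dye, sinapic acid and both, against 0.09, 0.13, 0.22 and 0.21 over the window.

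**Figure D5:**
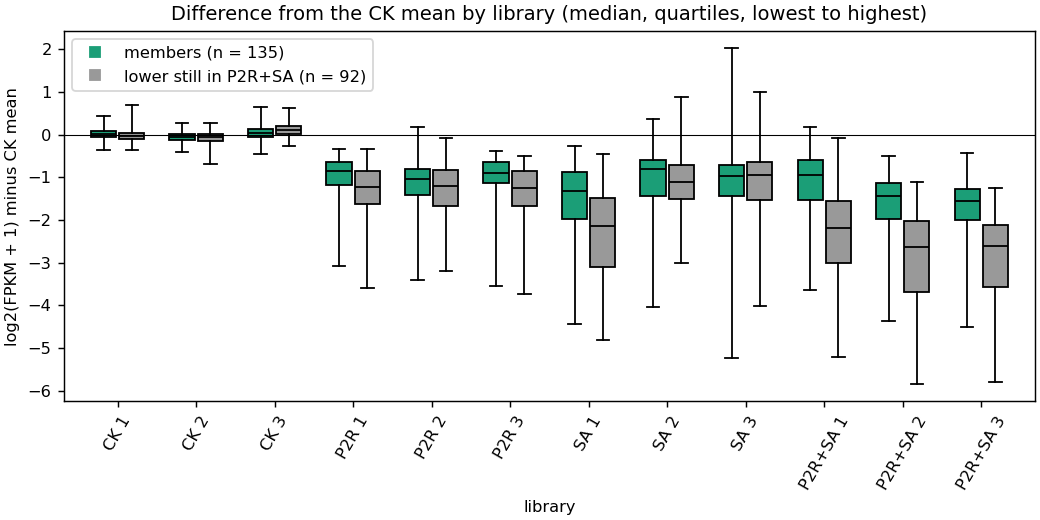
Box plots of log2(FPKM + 1) minus the CK mean in each library, for the 135 members and for the 92 genes that were lower still in P2R+SA; the line is the median, the box the quartiles and the whiskers the lowest and highest gene. The members' medians lie between -0.82 and -1.56 in all 9 treated libraries, and those of the 92 genes are -2.18, -2.64 and -2.61 in P2R+SA.

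The membership changed with the libraries. Without P2R+SA replicate 1, 105 genes met the rule, of which 101 were members, and the other 34 members became lower still in P2R+SA than the limits allow. Without SA replicate 1, 100 genes met it, 94 of them members; 28 members then no longer lay 0.6 below CK with both compounds (19 of the 68, 9 of the 22 and 0 of the 45), and 13 became lower still. Without SA replicate 2 it was 171 genes (127 members), without SA replicate 3 it was 157 (117 members), and without P2R replicate 2 it was 118 (112 members). With SA replicate 1 and P2R+SA replicate 1 left out, 77 genes met the rule and 69 members remained, that is 51.1% of the 135 and 89.6% of the 77. In the same libraries the median member was 0.51 log2 units lower in P2R+SA than in P2R and 0.56 lower than in SA. Under each omission of 1 library in turn, 46 members (34.1%) always met the rule, A04815 among them and the other 3 named genes not. These 46 had median differences from CK of -1.05 with the dye, -1.24 with sinapic acid and -1.46 with both, which was 62.3% of the summed differences, and P2R+SA had the lowest mean in 27 of them.

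The limits cut through a continuous spread of values. The members nearest to the limits on the single compounds lay at -0.605 in P2R and -0.606 in SA, and the nearest genes outside at -0.597 and -0.599. Within 0.1 of the limit there were 31 members and 29 other genes for P2R, and 24 and 35 for SA. At the limit of -0.5 below the nearer single compound, the values next to it were -0.499 inside and -0.512 outside, with 18 members and 14 other genes within 0.1. At the upper limit of 0.6 above P2R they were 0.594 and 0.607.

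A further 92 genes met the limits on both single compounds but lay lower still with both. They differed from the members by the limit itself, with a median P2R+SA minus CK of -2.47 against -1.33. Their single-compound drops were also somewhat deeper, with medians of -1.21 in P2R and -1.35 in SA. In these genes P2R+SA reached a median of 97.0% of the summed differences, a share that the limit itself raises. SA replicate 1 was lower among them too, with a median 0.68 below its group mean, against 0.22 in the members. Their median coding length was 1371 bp. The 11 genes that lay 0.6 or more above P2R in P2R+SA had medians of -1.64 with the dye, -0.74 with sinapic acid and -0.48 with both.

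Among the ID numbers of the members, 8 (5.93%) were next to that of another member, in 4 pairs, while 2.56% of the other tested genes had a member as neighbour. No source used here says whether the ID order follows the genome.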

How the data were processed

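Mycelial mRNA was measured in 12 libraries, grouped by sample title. The deposited FPKM values were made by the authors; HISAT2, fastp, HTSeq and R 3.2.0 are listed in the submitters' processing notes, and the genome build, annotation and strand setting were not given in sources used here. TRIzol was used for extraction, per the labels' protocols. Whole fragments were recovered from the per-library FPKM values for 10276 of 10276 genes (tolerance 0.0001 fragments), which gave depth and coding lengths. The rule was applied to log2(FPKM + 1) of the series-wide table. In R 4.3.3, limma 3.58.1 was run on the 9240 genes with at least 1 FPKM in 3 libraries, over all 12 libraries with an intensity trend, 8 residual degrees of freedom and no block; p-values were adjusted over all tested genes by Benjamini-Hochberg, two-sided, and called under 0.05. Fold changes on this scale understate low genes. The fit and the recovery were tested on simulated data. No replicate pair agreed within sampling noise (chi-square per degree of freedom 25.7 to 263). The 4 IDs follow a rule: the 2 largest falls under the weaker compound with CK above all other libraries, and the 2 highest P2R+SA minus P2R; other genes shown with values are extremes picked after their values were seen. Members and lists were chosen with earlier results of these data known. Alternatives covered pseudocount, scaling, filters, limits, left-out libraries, a replicate block, limma-voom, array quality weights and fits on the compared libraries alone.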

Additional observations from a re-analysis of the deposited data

Results flagged for a closer look

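The difference of the sinapic acid effect with and without the dye (the interaction) passed the test in 9 members, with log2 values of 0.98 to 2.56 and limma adjusted p of 0.0095 to 0.0481. In these 9 the median sinapic acid effect was -2.62 without the dye and -0.69 with it, and all 9 had every CK library above the treated ones. Over all tested genes 0.455% were called in this direction. The limits that chose the members use the same group means and allow only positive values. The direction is therefore no finding, and the sizes, p-values and count are no separate evidence. The count also depended on single libraries. It was 1 to 3 when a library of CK or P2R was left out, 23 when SA replicate 2 was, and 8 to 10 when any of the others was.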

How the results depend on the processing

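The number of members was 85 with a limit of 0.7 on both falls, 206 with 0.5, 77 without SA replicate 1 and P2R+SA replicate 1 (the pair left out below), and 100 to 171 without any 1 library. Median-of-ratios scaling gave 98 (91 of the 135 among them) and a pseudocount of 5 gave 107 (88 of the 135). Members with CK above all treated libraries numbered 112 to 121 without any 1 library. Without any 1 library, members called numbered 71 to 125 in P2R vs CK, 76 to 117 in SA vs CK, 109 to 133 in P2R+SA vs CK, 21 to 60 in P2R+SA vs P2R, 2 to 33 in P2R+SA vs SA, 23 to 38 in SA vs P2R and 1 to 23 in the interaction. Genes called over all tested genes were 2640, 1536, 3689, 1828, 558, 2344 and 106 in the same order, and without any 1 library 1381 to 3386, 808 to 2210, 2388 to 4738, 1086 to 2425, 148 to 1887, 1435 to 3007 and 35 to 329. With array quality weights, genes called were 5137 in P2R vs CK, 6656 in P2R+SA vs CK, 4700 in P2R+SA vs P2R, 2020 in P2R+SA vs SA and 494 in the interaction, and members 89, 47 and 29 in the last 3. With that pair left out, genes called were 2940 in P2R+SA vs P2R, 2251 in P2R+SA vs SA and 342 in the interaction, and members 76, 68 and 16, with 52 in SA vs P2R; this was chosen after seeing the data. With the compared libraries alone, 4531 genes were called in P2R vs CK and 32 in P2R+SA vs SA, with 0 members there. Members called in P2R+SA vs SA were 9 with quantile normalization and 8 with median-of-ratios scaling. In the interaction they were 15 with a pseudocount of 5, 14 after quantile normalization and 5 with no filter on low values. Deviations of same-numbered libraries correlated at -0.32 to 0.54, with 3 of 18 pairs over 0.1. Between P2R and P2R+SA the correlation was 0.39 for replicate 1, 0.54 for replicate 2 and -0.28 for replicate 3. Deviations from a mean of 3 libraries cannot settle whether the numbers pair the libraries. With the replicate block 65 genes were called in the interaction. The cause of these shifts was not tested, and omissions also leave fewer libraries. Depth limited few values: 2 members had under 100 fragments in the 3 P2R+SA libraries together.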
